A study of Mus musculus with 14 samples.

Results

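The H3K27ac region table of Y1 cells held 40772 regions, and 6792 of them were annotated by the authors as distal intergenic, lay at most 50000 bases from the nearest annotated transcription start site and were under 3000 bases wide. These 6792 intergenic regions were chosen by annotation, distance and width, so no signal entered the choice. Y1 is a mouse adrenocortical tumour line, studied here as a single line in culture. After 48 h without serum the cells received, for 5 h, either fibroblast growth factor 2 (FGF-2, 10 ng/ml) together with 10% fetal bovine serum, or 10% fetal bovine serum alone. Both groups shared the starvation and the serum, and starved cells without serum were not analysed here. Histone H3 acetylated at lysine 27 (H3K27ac) was mapped by chromatin immunoprecipitation in 2 libraries of each group, all 4 with an input of their own, and polyadenylated RNA was sequenced in 3 libraries of each group. Nothing in the labels says that libraries of a group came from separate cultures, so the spread behind the p-values may be technical. For H3K27ac that spread was taken almost wholly from a trend over all regions, not from the libraries of a single region. The comparison asks where FGF-2, added on top of serum, changed H3K27ac away from promoters.

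H3K27ac is laid down by histone acetyltransferases at active promoters and enhancers. Regions that carry the mark between genes are commonly read as candidate enhancers, stretches of DNA that bind transcription factors and can act on a gene at a distance, which need not be the nearest one. FGF-2 binds receptor tyrosine kinases at the cell surface, which signal through RAS to the ERK MAP kinases and on to transcription factors of the ETS and AP-1 families. Y1 cells are known for a block of their division by FGF-2.

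H3K27ac was read at a depth of 12447135 and 11840994 fragments with FGF-2 and 12856806 and 14156846 with serum alone. The inputs held 12241177 and 12576377 fragments with FGF-2 and 15672630 and 110273836 with serum alone. The input of serum-alone library 2 was thus far deeper than the others, and its effect on the peak calls and signals was not tested. The RNA libraries held 6403095 to 12696426 counts in genes with FGF-2 and 5625004 to 9101089 with serum alone. The markers of adrenocortical cells summed to 2264 to 3748 CPM (counts scaled to library size) with FGF-2 and 663 to 910 CPM with serum alone. Star, which encodes the protein that carries cholesterol into mitochondria, made up that difference with 2294 ± 763 CPM with FGF-2 and 165 ± 101 CPM with serum alone (SD, n = 3 each), since the other 7 markers summed to 471 to 590 CPM with FGF-2 and 546 to 629 CPM with serum alone. Of the defining markers of other adrenal cells, Th and Dbh (medulla) and Col1a2 and Dcn (fibroblasts) had a sum of 0 counts over the 6 libraries. The marker sums of fibroblasts were 1828 to 2631 CPM with FGF-2 and 2508 to 3174 CPM with serum alone, the medulla sums were 1.498 to 2.71 CPM with FGF-2 and 5.25 to 7.02 CPM with serum alone, and the sums for endothelium and blood cells 3.61 to 4.38 CPM with FGF-2 and 4.77 to 8.19 CPM with serum alone. Col1a1 made up nearly all of the fibroblast sums, at 2097 ± 462 CPM with FGF-2 and 2934 ± 371 CPM with serum alone. Ddc made up most of the medulla sums, at 2.03 ± 0.52 CPM with FGF-2 and 6.15 ± 0.84 CPM with serum alone (SD, n = 3 each). The part of these cell types in the results was not tested.

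Sequence can be shown where an intergenic region holds an annotated start, and these are shown because they are the changed regions whose letters are known. RefSeq (GRCm38.p6, which shares its chromosome coordinates with mm10) places the starts of 94 genes, most of them predicted genes named Gm, inside 93 of the 6792 regions, in 108 windows of 300 bases that run from 250 bases before the start to 50 after it. Of these 93 regions, 11 were called higher with FGF-2 (13% of all 40772 regions were) and 10 lower (3.88% of all regions were), where called means a limma Benjamini-Hochberg adjusted p under 0.05. The windows below come from regions called higher (Gm46607 at chr17:45788483-45788782, plus strand, and Gm42356 at chr4:150807530-150807829, plus strand) and from regions called lower (Gm35438 at chr19:27264372-27264671, minus strand, and Gm30794 at chr17:87460310-87460609, minus strand). Capitals mark an SF-1 motif in Gm42356 and a TEAD motif in Gm30794. SF-1 is the nuclear receptor that drives steroidogenic genes in the adrenal cortex, and TEAD factors are the DNA-binding partners of YAP.
Gm46607: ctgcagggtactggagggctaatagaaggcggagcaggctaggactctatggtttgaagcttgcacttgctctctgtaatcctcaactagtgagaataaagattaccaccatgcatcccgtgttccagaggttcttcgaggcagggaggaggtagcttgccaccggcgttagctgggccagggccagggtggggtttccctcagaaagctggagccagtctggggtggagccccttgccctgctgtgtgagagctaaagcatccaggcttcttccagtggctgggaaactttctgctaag
Gm42356: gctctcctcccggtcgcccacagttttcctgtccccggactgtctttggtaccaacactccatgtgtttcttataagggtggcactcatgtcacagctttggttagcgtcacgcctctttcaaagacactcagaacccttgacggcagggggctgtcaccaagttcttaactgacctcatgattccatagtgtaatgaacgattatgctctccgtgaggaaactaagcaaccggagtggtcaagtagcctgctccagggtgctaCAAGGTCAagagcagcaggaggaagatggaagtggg
Gm35438: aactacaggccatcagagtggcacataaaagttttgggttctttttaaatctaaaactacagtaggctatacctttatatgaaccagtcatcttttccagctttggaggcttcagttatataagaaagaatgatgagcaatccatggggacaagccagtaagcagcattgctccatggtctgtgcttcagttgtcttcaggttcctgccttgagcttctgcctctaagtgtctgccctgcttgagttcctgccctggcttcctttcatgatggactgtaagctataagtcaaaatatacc
Gm30794: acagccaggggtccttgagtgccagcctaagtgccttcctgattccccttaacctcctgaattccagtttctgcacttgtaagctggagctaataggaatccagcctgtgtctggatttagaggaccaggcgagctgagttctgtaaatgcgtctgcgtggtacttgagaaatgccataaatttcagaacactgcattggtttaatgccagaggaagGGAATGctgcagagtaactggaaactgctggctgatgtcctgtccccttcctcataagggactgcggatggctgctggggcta

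The H3K27ac signal of a region is the number of reads in it multiplied by a factor per library, with a floor of 1 read. Whether input reads were subtracted first is not known, so a region at the floor may still hold reads of the mark. The region of the Gm46607 start had signals of 104 and 83 with FGF-2 and 9.21 and 6.69 with serum alone. It is 1 of 15 regions next to F630040K05Rik that were all called higher. The region of the Gm42356 start, 45.4 kb upstream of Errfi1, which encodes an inhibitor of the EGF receptor, had signals of 97.0 and 83 with FGF-2 and 8.29 and 20.1 with serum alone. Both were several times higher in every FGF-2 library than in any serum-alone library. The region of the Gm35438 start, 46.8 kb downstream of the start of the lipoprotein receptor gene Vldlr, had signals of 3.80 and 8 with FGF-2 and 26.7 and 27.6 with serum alone. The region of the Gm30794 start, 12.7 kb upstream of the calmodulin gene Calm2, had signals of 43.7 and 38 with FGF-2 and 100 and 101 with serum alone. In both of these the FGF-2 libraries lay below both serum-alone libraries.

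Motifs were searched on both strands of the 108 windows and of all 32851 RefSeq start windows of the same length. The AP-1 motif TGANTCA was in 10 windows (9.26%) and in 7.81% of all windows, and the ETS motif CCGGAAGT in 6 (5.56%) and 3.89%. The SF-1 motif CAAGGTCA was in 3 windows (2.78%) against 1.56% of all windows, and 2 of these 3 were among the 11 windows of regions called higher. The TEAD motif GGAATG was in 22 (20.4%) against 14.7%, of which 4 were among the 12 windows of regions called lower and 1 among those called higher. The E-box CACGTG was in 8 (7.41%) against 7.15%, the Sp/KLF motif GGGCGG, common in promoters, in 20 (18.5%) against 35.7%, and the CRE TGACGTCA in 0 of 108 against 1.79%. A match describes these letters and is not a binding site.

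A second set of sequences belongs to microRNA genes, since 189 intergenic regions had a microRNA gene as their nearest gene. Of these, 33 were called higher (17.5%, against 13% of all regions) and 8 lower (4.23%, against 3.88%), next to 24 microRNA genes. MicroRNAs pair with target RNAs through bases 2 to 8, the seed. It is in capitals in the mature RefSeq sequences of 6 of these genes. No seed is shared among the 6 shown.
mmu-miR-184-3p: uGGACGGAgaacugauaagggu
mmu-miR-680: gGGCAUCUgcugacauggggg
mmu-miR-6390: gAAUUGAUcaggauguaacca
mmu-miR-29b-3p: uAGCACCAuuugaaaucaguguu
mmu-miR-34a-5p: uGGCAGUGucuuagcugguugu
mmu-miR-6244: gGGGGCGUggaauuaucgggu

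The region 8510 bases downstream of the Mir184 start had signals of 48.5 and 37 with FGF-2 and 0.92 and 0.84, the floor of 1 read, with serum alone, at least 16.2-fold higher with FGF-2. Next to Mir680-3, a region at chr12:35216650-35217785 had signals of 75.1 and 56 with FGF-2 and 0.92 and 2.51 with serum alone, and it was 1 of 4 regions called higher there. The region 7051 bases upstream of Mir29b-1, which encodes a microRNA that targets collagen transcripts, had signals of 81.8 and 70 with FGF-2 and 11.97 and 21.7 with serum alone (log2 fold change 1.97 ± 0.33, SE). In these 3 regions neither FGF-2 library reached down to a serum-alone library. The region upstream of Mir34a, a target of p53, had signals of 165 and 142 with FGF-2 and 73.7 and 64.4 with serum alone. In the other direction, the region 17001 bases upstream of Mir6244 had signals of 2.85 and 7 with FGF-2 and 23.9 and 24.2 with serum alone (-1.69 ± 0.44, SE). The microRNAs themselves were not measured, since the RNA libraries were made from polyadenylated RNA.

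The intergenic regions were narrow and weak next to promoters. Their median width was 628.5 bases (quartiles 396 and 1110) and their median distance from the start site 16916.5 bases (quartiles 9225.5 and 28758), with 4796 regions upstream of the nearest start and 1996 downstream. They were spread over 3221 nearest genes, 1583 of which had a single region, while 1 gene had 16. Their median signal was 29.0 and 26 with FGF-2 and 25.8 and 22.6 with serum alone, while in the 12484 promoter regions within 1 kb of a start it was 119 and 130 with FGF-2 and 136 and 104 with serum alone. The median of log2 signal in the intergenic regions minus that in promoter regions was -1.90 and -2.16 with FGF-2 and -2.24 and -2.02 with serum alone, which overlapped (two-sided exact permutation test over the 4 libraries, p = 0.667, the smallest possible being 0.333). The intergenic regions held 9.13% and 8.53% of all region signal with FGF-2 and 8.38% and 8.91% with serum alone.

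H3K27ac was higher with FGF-2 at more intergenic regions than it was lower. In limma, fitted on log2(signal + 4) over all 40772 regions, 1081 intergenic regions (15.9%) were called higher with FGF-2 at a Benjamini-Hochberg adjusted p under 0.05, against 13% of all regions, and 361 (5.32%) were called lower, against 3.88% of all regions. The 1081 regions called higher had a median signal of 43.7 and 34 with FGF-2 and 9.21 and 10.9 with serum alone, with a median log2 fold change of 1.48 (quartiles 1.19 and 1.93). The 361 called lower had a median signal of 17.1 and 18 with FGF-2 and 51.6 and 39.3 with serum alone, with a median log2 fold change of -1.19 (quartiles -1.49 and -0.997). Changes of at least 4-fold were found in 247 of the regions called higher (22.8%) and in 14 of those called lower (3.88%). The median over all 6792 intergenic regions was 0.11, against 0.10 over the whole table.

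**Figure D1:**
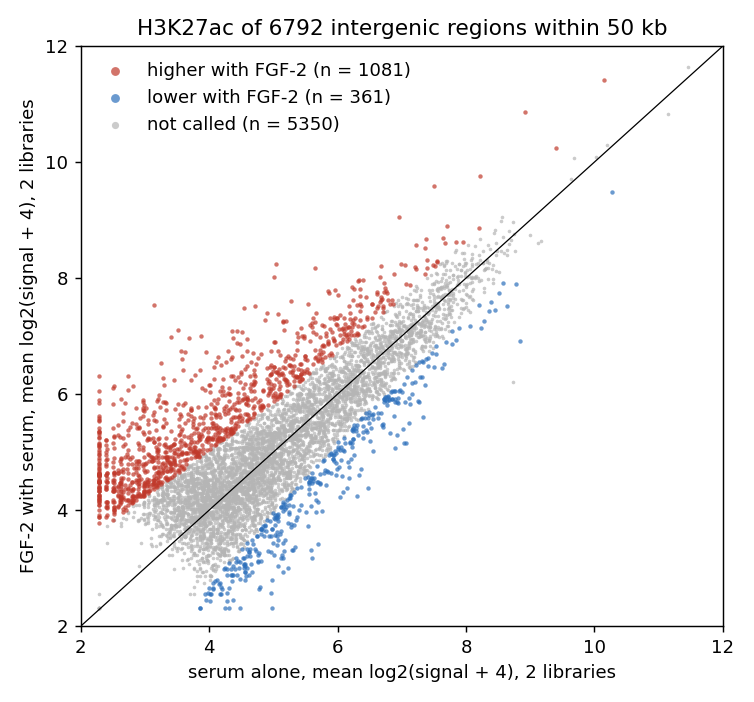
Mean log2(signal + 4) of the 2 FGF-2 libraries (vertical axis) against that of the 2 serum-alone libraries (horizontal axis) for the 6792 intergenic regions, 1 point per region. Red points are the 1081 regions called higher with FGF-2, blue points the 361 called lower and grey points the rest, and the line marks equal values. The vertical band of red points at the left edge holds regions at the floor of 1 read in both serum-alone libraries.

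Counted by size, 1037 intergenic regions (15.3%) were at least 2-fold higher in the FGF-2 group with no overlap between the libraries of the groups, against 12% of all regions, and 329 (4.84%) at least 2-fold lower, against 3.39%. In the authors' deposited table, at a false discovery rate under 0.05, 674 intergenic regions (9.92%) were higher with FGF-2, against 8.33% of all regions, and 141 (2.08%) were lower, against 1.64%. The authors' deposited table thus held 61.9% of the regions called higher and 38.8% of those called lower. The counts rested on single libraries. There were 374 higher and 113 lower calls without FGF-2 library 1, 627 and 163 without FGF-2 library 2, 1053 and 152 without serum-alone library 1, and 929 and 453 without serum-alone library 2. DESeq2 on the reads recovered from the signals called 453 and 181. Scaling moved the split between the directions. Of the called intergenic regions 74.97% were higher in the main fit, 56.9% with each library centred on its median, 53.4% after quantile normalization and 62.0% with edgeR's TMM scaling, since centring moved the median log2 fold change of all regions to -0.06. Each region's variance was taken almost wholly from the trend over all regions, because 4 libraries leave 2 residual degrees of freedom, so a region whose own libraries scatter can still be called.

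The share of regions that changed differed by position in the genome. Called higher and called lower were 23.2% and 7.52% of the 3191 intergenic regions beyond 50 kb, 18.4% and 4.88% of the 8025 regions in later introns, 16.4% and 3.64% of the 4967 in first introns, 13.6% and 3.24% of the 1947 regions at 1 to 3 kb from a start, and 2.69% and 1.39% of the 12484 within 1 kb. Among the intergenic regions, the 1698 with the highest signal (medians of 109 and 106 with FGF-2 and 109 and 89.4 with serum alone) had 14.1% called higher and 6.24% lower. Their signal was near that of promoters. These are shares of regions, and their differences were not tested. By distance, the share called higher was 14.2% within 10 kb, 15.7% at 10 to 20 kb, 16.2% at 20 to 30 kb and 18.0% at 30 to 50 kb, and the share called lower was 4.49%, 5.68%, 5.44% and 5.74%. Just inside the limit of 50 kb, at 45 to 50 kb, 19.7% of 305 regions were called higher and 5.90% lower, and just outside it, at 50 to 55 kb, 20% of 285 and 4.56%. Of the 165 regions within 500 bases below the width limit 16.4% were called higher and 7.27% lower, and of the 96 within 500 bases above it 12.5% and 7.29%. Over 4 width classes of like size, from the narrowest to the widest, the share called lower was 2.58%, 4.38%, 6.30% and 8.01%, while the share called higher was 14.2%, 15.6%, 18.0% and 15.96%.

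**Figure D2:**
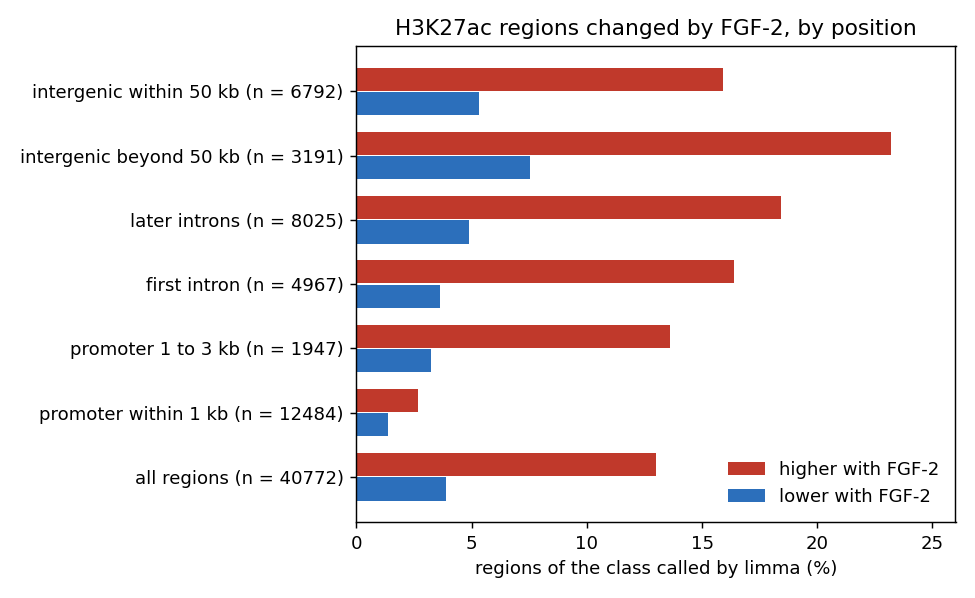
Share of H3K27ac regions called higher (red) or lower (blue) with FGF-2 by limma, in percent of the regions of each class, with the number of regions in each class beside its name. Intergenic regions within 50 kb reached 15.9% higher and 5.32% lower, and promoters within 1 kb 2.69% and 1.39%.

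The authors called peaks in each library separately, and at an overlap of at least 1 base 3542 intergenic regions (52.1%) had a peak in all 4 libraries, against 62.7% of all regions. A peak in both FGF-2 libraries and in neither serum-alone library was found in 844 (12.4%), against 9.72% of all regions, and the reverse in 490 (7.21%), against 5.14%. Of the 1081 regions called higher, 562 (52.0%) had a peak in both FGF-2 libraries and in neither serum-alone library, and of the 361 called lower, 40.2% had the reverse. In both serum-alone libraries 84 intergenic regions were at the floor of 1 read, of which 76 were called higher. Their fitted fold changes depend on the pseudocount. A fold change printed for such a region is a lower bound on the ratio of the deposited signals, taken against 3 reads per library. Whether input was subtracted before the floor was set is not known, so it is not a bound on the mark itself. Regions near Mir101c were at the floor in all 4 libraries, although every intergenic region overlapped a peak in at least 1 library.

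Regions called higher lay in runs. Of the 909 regions called higher whose nearest other intergenic region was within 20 kb, that neighbour was also called higher in 597 (65.7%) and called lower in 2, while 17.9% of the neighbours of all intergenic regions were called higher. Of the 257 called lower with such a neighbour, 71 (27.6%) had one called lower and 2 one called higher, against 4.70% lower over all intergenic regions. Adjoining regions can share a single acetylated stretch, with a median gap between centres of 1401 bases for regions called higher and 3787 for those called lower. The shares of like neighbours were 42.8% and 16.7% without FGF-2 library 1, 62.7% and 25.0% without FGF-2 library 2, 59.1% and 13.9% without serum-alone library 1, and 60.9% and 26.6% without serum-alone library 2. In all, 103 nearest genes had at least 3 called regions, of which 91 had them all higher, 8 all lower and 4 in both directions. The 103 genes became 28 (26, 1 and 1) without FGF-2 library 1, 60 (58, 2 and 0) without FGF-2 library 2, 83 (81, 1 and 1) without serum-alone library 1 and 95 (77, 13 and 5) without serum-alone library 2.

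On the log2(signal + 4) scale the largest single increase lay on chromosome 19 near Mirt1, a long non-coding RNA gene, while the authors' deposited table gave a log2 fold of 4.85 there and a larger one, 6.43, at a region near Rai1. The region at chr19:53422290-53425018, 26.5 kb from the Mirt1 start, had signals of 193 and 170 with FGF-2 and 0.92 and 11.7 with serum alone. Its log2 fold change was 4.40 ± 0.33 (SE; limma Benjamini-Hochberg adjusted p = 9.15e-36). This SE and p rest on the trend over all regions and leave out the wide difference between the 2 serum-alone libraries here. The false discovery rate in the authors' deposited table was 0.00471 for this region. A region at chr11:60095333-60096555, 8.5 kb upstream of Rai1, which encodes a chromatin-associated regulator of transcription, had signals of 74.2 and 77 with FGF-2 and 0.92 and 0.84 with serum alone. Both serum-alone libraries were at the floor there, so the signal was at least 28.7-fold higher with FGF-2. A region at chr1:59906881-59909020, 4.0 kb upstream of Fam117b, had signals of 139 and 106 with FGF-2 and 5.52 and 13.4 with serum alone (3.29 ± 0.33, SE; adjusted p = 6.16e-20). In these 3 regions each FGF-2 library was many times higher than either serum-alone library. RNA of Rai1 was 438 to 604 CPM with FGF-2 and 188 to 248 CPM with serum alone (log2 fold change 1.30). RNA of Fam117b was 186 to 250 CPM with FGF-2 and 46.0 to 53.9 CPM with serum alone (2.11), and both passed the edgeR test. In bulk RNA, fewer cells of a type and less RNA per cell cannot be told apart.

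**Figure D3:**
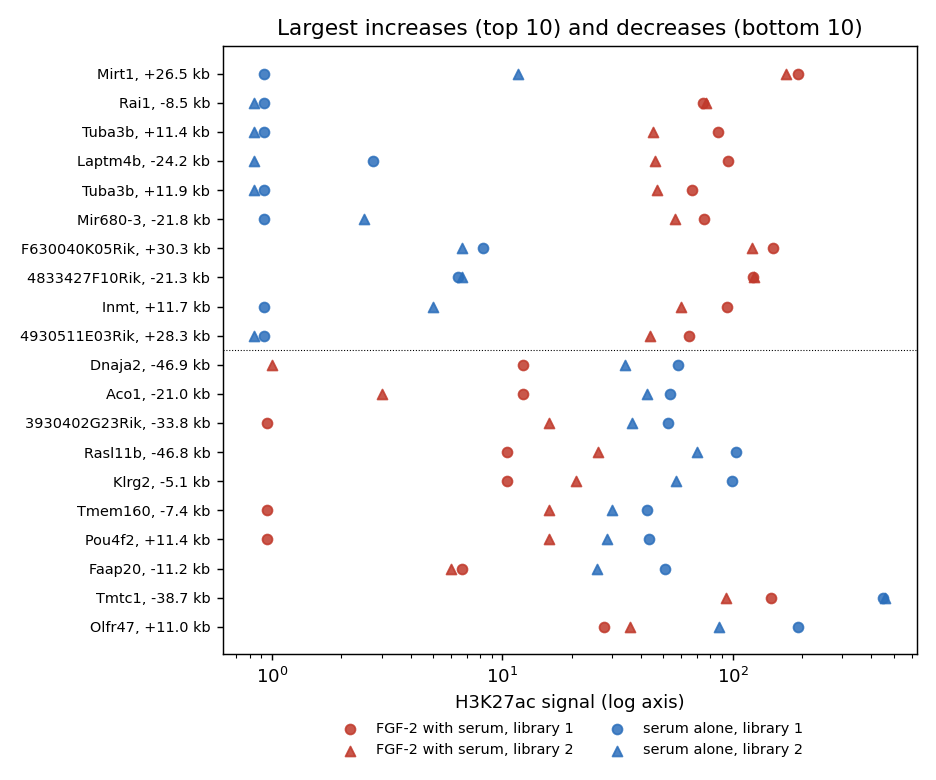
H3K27ac signal per library, on a log axis, of the 10 intergenic regions with the largest increase in log2(signal + 4) (above the dotted line) and the 10 with the largest decrease (below it), named by nearest gene and distance from its start. Red symbols are FGF-2 libraries and blue symbols serum-alone libraries, circles library 1 and triangles library 2. Rows were taken only from called regions with a mean signal of at least 20 and no overlap between the groups. The lack of overlap was thus set by the choice. Several serum values sit at the floor near 0.9.

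Near 4833427F10Rik, a region 21.3 kb upstream had signals of 123 and 124 with FGF-2 and 6.45 and 6.69 with serum alone (3.59 ± 0.34, SE), and the libraries of a group nearly coincided. The RNA of 4833427F10Rik averaged 4.79 ± 2.17 CPM with FGF-2 and 0.363 ± 0.336 CPM with serum alone (SD, n = 3 each). The other increases of this size lay near genes with no tested RNA or an RNA that did not pass the test. Near Laptm4b, which encodes a lysosomal membrane protein, a region 24.2 kb upstream had signals of 95.1 and 46 with FGF-2 and 2.76 and 0.84 with serum alone (3.62 ± 0.41, SE). A region 11.7 kb from the start of the methyltransferase gene Inmt had signals of 94.1 and 60 with FGF-2 and 0.92 and 5.01 with serum alone (3.57 ± 0.39, SE), and Crhr2 lies within 100 kb of it. A region 28.3 kb from the start of 4930511E03Rik had signals of 64.7 and 44 with FGF-2 and was at the floor in both serum-alone libraries, at least 20.6-fold higher with FGF-2. Each of these was higher in both FGF-2 libraries than in either serum-alone library, which the choice of regions required.

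The largest decreases were smaller and less even between libraries. A region 21.0 kb upstream of Aco1, which encodes cytosolic aconitase, had signals of 12.4 and 3 with FGF-2 and 53.4 and 42.6 with serum alone (-2.27 ± 0.39, SE; limma adjusted p = 3.05e-07). A region 46.8 kb upstream of Rasl11b, a small GTPase gene, had signals of 10.5 and 26 with FGF-2 and 103 and 70.2 with serum alone (-2.10 ± 0.33, SE), and the RNA of Rasl11b fell to 4.38 ± 0.86 CPM with FGF-2, against 16.7 ± 4.32 CPM with serum alone (SD, n = 3 each). A region 5.1 kb upstream of Klrg2 had signals of 10.5 and 21 with FGF-2 and 99.5 and 56.8 with serum alone, and one 11.2 kb upstream of Faap20, a Fanconi anaemia pathway gene, 6.66 and 6 with FGF-2 and 50.7 and 25.9 with serum alone. In each of these both FGF-2 libraries were below both serum-alone libraries, which the choice of regions required. Other large decreases rested on 1 library. The region near Dnaja2 had signals of 12.4 and 1 with FGF-2 and 58.0 and 34.3 with serum alone, and its log2 fold change of -2.43 was -1.57 without FGF-2 library 2. The regions near 3930402G23Rik, Tmem160 and Pou4f2 had 0.95 (the floor) in FGF-2 library 1 and 16 in FGF-2 library 2, and 28.4 to 52.5 with serum alone. Without FGF-2 library 1 their log2 fold changes were -1.26, -0.99 and -0.97 in place of -2.27, -1.998 and -1.98 and none passed the test (adjusted p = 0.0620, 0.203 and 0.219), and without FGF-2 library 2 those of Tmem160 and Pou4f2 were -3.01 and -2.98. In the authors' deposited table the false discovery rate of these 4 was 0.215 to 0.494.

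Around Dusp5, which encodes a nuclear phosphatase that inactivates ERK, H3K27ac was higher over a wide stretch. Within 150000 bases of the Dusp5 start, 20 of 21 intergenic regions were called higher (13% of all regions were) and none lower (3.88% of all regions were). The 21 log2 fold changes ran from 0.95 to 4.40, with a median of 2.36. This stretch was chosen after its values were seen, and adjoining regions can share a single acetylated stretch. Dusp5 was the nearest gene of 5 of the 21 regions, and Mirt1, Smndc1 and Smc3 of the rest. The region at chr19:53506539-53508617, 20.7 kb upstream of Dusp5, had signals of 183 and 177 with FGF-2 and 20.3 and 24.2 with serum alone (2.81 ± 0.29, SE; limma adjusted p = 4.10e-19). Downstream, the region at chr19:53564544-53567033, nearest to Smc3, a cohesin subunit gene, had signals of 307 and 291 with FGF-2 and 20.3 and 41.0 with serum alone (3.20 ± 0.27, SE). In both, the 2 FGF-2 libraries were close to each other and well above the serum-alone libraries. Dusp5 RNA was 4.67, 3.97 and 6.15 CPM with FGF-2 and 0.095, 0.213 and 0.166 CPM with serum alone (log2 fold change 4.84 ± 0.44, SE; edgeR Benjamini-Hochberg adjusted p = 4.07e-05). Smc3 RNA averaged 210 ± 7.81 CPM with FGF-2 and 133 ± 2.75 CPM with serum alone (SD, n = 3 each). Mirt1 RNA was 1.498 to 1.81 CPM with FGF-2 and 0.106 to 0.995 CPM with serum alone, and its log2 fold change of 2.151 did not pass the test without serum-alone RNA library 1 (1.77, adjusted p = 0.0731) or 2 (1.66, adjusted p = 0.0702) and was 3.33 without serum-alone RNA library 3. The count of 20 was 14 without FGF-2 library 1, 17 without FGF-2 library 2 and 19 without serum-alone library 1 or 2, and 16 in the authors' deposited table.

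**Figure D4:**
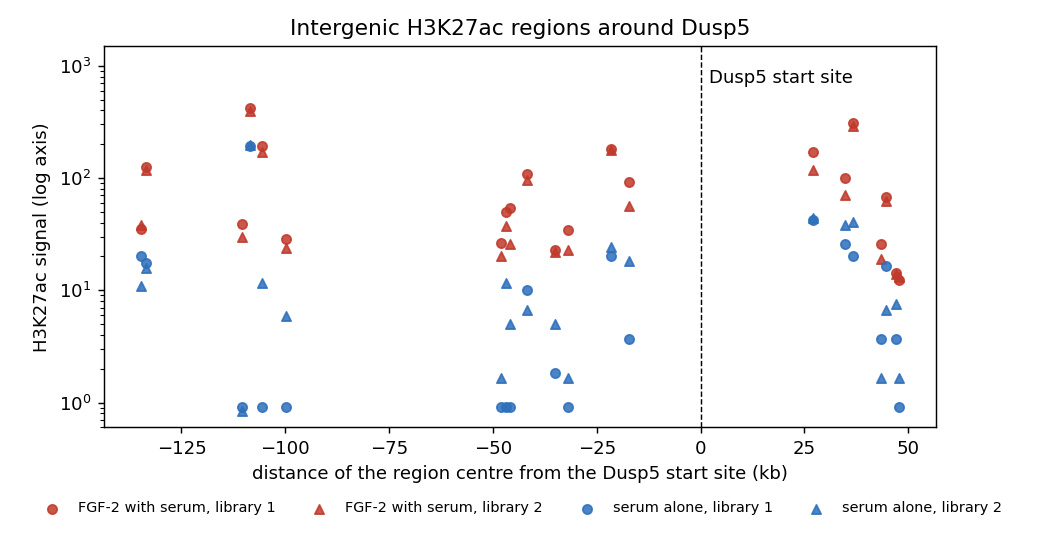
H3K27ac signal per library, on a log axis, of the 21 intergenic regions within 150000 bases of the Dusp5 start site, by the distance of the region centre from that start in kb. Red symbols are FGF-2 libraries and blue symbols serum-alone libraries, circles library 1 and triangles library 2. Red lies above blue at every region, and 20 of the 21 were called higher (13% of all regions were).

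The gene with the most called regions was F630040K05Rik on chromosome 17, where all 15 intergenic regions between positions 45745244 and 45808149 were called higher, with log2 fold changes of 1.12 to 3.59 and a median of 2.66. The largest of them in signal, 2705 bases wide, had signals of 277 and 237 with FGF-2 and 35.0 and 22.6 with serum alone, and the most changed, 30.3 kb from the start, 149.3 and 121 with FGF-2 and 8.29 and 6.69 with serum alone. All 15 were higher in both FGF-2 libraries than in either serum-alone library, as were 1079 of all 1081 intergenic regions called higher. The genes of this paragraph were picked for their many called regions. Over all regions, 13% were called higher and 3.88% lower. F630040K05Rik itself had no tested RNA. Of the 15, 11 were called without FGF-2 library 1, 14 without FGF-2 library 2 and 15 without serum-alone library 1 or 2. Pim1, a serine/threonine kinase gene, had 8 of 12 regions called higher, from 3.5 kb downstream of its start to 43.3 kb upstream. The nearest of these had signals of 23.8 and 20 with FGF-2 and 0.92 and 3.34 with serum alone, and Pim1 RNA averaged 407 ± 49.1 CPM with FGF-2 and 32.7 ± 12.5 CPM with serum alone (SD, n = 3 each). The 8 were 1 without FGF-2 library 1, 2 without FGF-2 library 2, 9 without serum-alone library 1 and 7 without serum-alone library 2. Next to Gdnf, a neurotrophic factor gene, 7 of 7 regions were called higher (1 without FGF-2 library 1, 6 without FGF-2 library 2, 5 without serum-alone library 1 and 6 without serum-alone library 2), and its RNA was 1.498 to 2.63 CPM with FGF-2 and 0.191 to 0.425 CPM with serum alone. Next to Mir6390, 10 of 10 were called higher (2 without FGF-2 library 1 and 8 or 9 without any other), and next to C330024C12Rik 9 of 9 (3 without FGF-2 library 1, 6 without FGF-2 library 2 and 9 without serum-alone library 1 or 2). Next to 4833427F10Rik 8 of 9 were called higher (4 without FGF-2 library 1, 6 without FGF-2 library 2, 7 without serum-alone library 1 and 8 without serum-alone library 2).

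Feedback regulators of ERK signalling, the phosphatases and adaptors that dampen the cascade, had 31 intergenic regions next to 10 genes, of which 15 were called higher (48.4%, against 13% of all regions) and 2 lower (6.45%, against 3.88%), with a median log2 fold change of 0.73 (0.10 over all regions). Besides Dusp5, the MAP kinase phosphatase gene Dusp4 had a region 15.3 kb upstream with signals of 36.1 and 20 with FGF-2 and 0.92 and 0.84 with serum alone, at least 10.7-fold higher with FGF-2, and its RNA averaged 26.4 ± 9.23 CPM with FGF-2 and 1.16 ± 0.87 CPM with serum alone (SD, n = 3 each). Dusp7 had 2 regions called higher (1.24 and 1.57), Dusp2 2, Spred2 1 and Spry2 3, of which the strongest signal was 191 and 169 with FGF-2 and 85.6 and 71.0 with serum alone. The 2 regions called lower were both next to Dusp1, with log2 fold changes of -0.78 and -0.99, and its RNA fell to 11.9 ± 0.34 CPM with FGF-2, against 45.7 ± 7.70 CPM with serum alone (SD, n = 3 each). Of the 9 genes with tested RNA, 8 rose and 1, Dusp1, fell, while of all genes tested 22.1% rose and 24.2% fell. The calls were 6 higher and 0 lower without FGF-2 library 1, 11 and 0 without FGF-2 library 2, and 13 and 1 without serum-alone library 1 or 2. Both Dusp1 calls were lost with either FGF-2 library left out, and neither was in the authors' deposited table, while centring gave 4 lower calls next to Dusp1.

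ETS and AP-1 factor genes had 24 regions, of which 2 were called higher (8.33%, against 13% of all regions) and 2 lower (8.33%, against 3.88%), with a median log2 fold change of -0.00. The 2 higher were 7.1 and 6.3 kb upstream of Fosb, an AP-1 subunit gene, with signals at the farther one of 44.7 and 37 with FGF-2 and 12.9 and 6.69 with serum alone. The nearer one did not pass with either FGF-2 library or serum-alone library 2 left out (adjusted p = 0.0551, 0.149 and 0.0896). The 2 lower were next to Ets2 (-1.06) and Etv4 (-1.28), and the Etv4 call was lost without FGF-2 library 1 (-1.03, adjusted p = 0.139). For the whole list there was 1 higher and 0 lower without FGF-2 library 1, 1 and 3 without FGF-2 library 2, 2 and 1 without serum-alone library 1, and 1 and 4 without serum-alone library 2. Other immediate-early genes, which are induced within minutes of growth factor signalling, had 40 regions, of which 5 were called higher (12.5%, near the 13% of all regions) and 1 lower (2.5%, against 3.88%), with a median of 0.19. A region 6.8 kb upstream of Arc, which encodes a cytoskeleton-associated protein, had signals of 14.3 and 16 with FGF-2 and was at the floor in both serum-alone libraries, at least 5.74-fold higher with FGF-2, and Arc RNA was 8.81 to 22.4 CPM with FGF-2 and 0.095 to 1.16 CPM with serum alone. The other regions called higher were next to Btg2 (2), Myc and the zinc finger gene Klf6, and the region called lower was next to Klf2 (21.9 and 30 with FGF-2, 70.0 and 69.4 with serum alone). Without FGF-2 library 1 none of the 6 was called, and the Klf6 log2 fold change of 1.64 was 1.05 (adjusted p = 0.553), that of Klf2 was -1.12 (0.0969), and Arc had an adjusted p of 0.0643. The counts were 2 and 1 without FGF-2 library 2, with an adjusted p of 0.0736 for Arc, and 4 and 1 without serum-alone library 1 or 2, the Klf6 call being lost without serum-alone library 2 (1.503, adjusted p = 0.0718). With centring the 2 lists had 2 higher and 4 lower calls and 4 higher and 2 lower, with medians of -0.17 and 0.02, and after quantile normalization the median of the immediate-early genes was -0.02. Of the tested genes of the 2 lists, 4 of 8 and 10 of 13 rose in RNA and 1 in each fell.

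Genes for secreted ligands, proteases and their receptors had 43 regions, of which 11 were called higher (25.6%, against 13% of all regions) and 4 lower (9.30%, against 3.88%), with a median log2 fold change of 0.19. Hbegf, the gene of an EGF receptor ligand, had 3 of 5 regions called higher, the strongest with signals of 90.3 and 58 with FGF-2 and 8.29 and 19.2 with serum alone (2.18 ± 0.34, SE; limma adjusted p = 1.73e-08). At this region every FGF-2 library exceeded both serum-alone libraries, and Hbegf RNA rose to 1354 ± 425 CPM with FGF-2, against 177 ± 113 CPM with serum alone (SD, n = 3 each). Other regions called higher were next to Plau (3), the urokinase gene, Tgfa, Pdgfa and Lif, and those called lower next to Inhbb (2), Fst and Ccl2. With centring the list had 9 higher and 6 lower calls and a median of 0.02, and after quantile normalization 8 and 7. Of the 10 genes with tested RNA 8 rose and 1 fell. The counts were 4 higher and 1 lower without FGF-2 library 1, 5 and 2 without FGF-2 library 2, 8 and 2 without serum-alone library 1, and 11 and 4 without serum-alone library 2.

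Genes of steroid synthesis and adrenocortical identity had 26 regions, of which 10 were called higher (38.5%, against 13% of all regions) and 0 lower (against 3.88%), with a median log2 fold change of 0.44. Cyp11a1, which encodes the cholesterol side-chain cleavage enzyme that starts steroid synthesis, had 5 of 7 regions called higher, at 8.8 kb and at 23.6 to 28.3 kb upstream. The region at chr9:57972484-57973443 had signals of 72.3 and 33 with FGF-2 and 5.52 and 6.69 with serum alone (2.40 ± 0.39, SE; limma adjusted p = 6.49e-08). The 2 regions nearest to the Cyp11a1 start, at 5.9 and 5.1 kb upstream, were not called, with signals of 59.9 and 58 with FGF-2 and 95.8 and 45.1 with serum alone at the farther one. Cyp11a1 RNA was 54.2, 59.7 and 107 CPM with FGF-2 and 129, 103 and 139 CPM with serum alone (log2 fold change -0.76 ± 0.26, SE; edgeR adjusted p = 0.0454), so the RNA and the 5 regions were called in opposite directions. That RNA call did not hold without FGF-2 RNA library 1 or 2 (adjusted p = 0.109 and 0.127), without serum-alone RNA library 1 or 3 (0.0935 and 0.0877) or with no filter on low counts (0.115). The RNA of Sema7a, which lies within 100 kb of these regions, rose. Crhr2, a receptor of corticotropin-releasing hormone peptides, had 2 of 2 regions called higher, the region 18.9 kb upstream with 46.6 and 26 with FGF-2 and 2.76 and 0.84 with serum alone, and its RNA averaged 278 ± 69.3 CPM with FGF-2 and 2.73 ± 1.39 CPM with serum alone (SD, n = 3 each). Soat1, which encodes the enzyme that stores cholesterol as esters, had 2 of 2, the region 32.7 kb upstream with 98.9 and 77 with FGF-2 and 18.4 and 27.6 with serum alone, and its RNA averaged 2613 ± 592 CPM with FGF-2 and 605 ± 203 CPM with serum alone. The last region called higher was next to Fdx1, whose RNA did not pass the test (-0.09). Of the 8 tested genes 4 rose in RNA and 1, Cyp11a1, fell. The 10 calls were 5 without FGF-2 library 1, 9 without FGF-2 library 2 and 10 without serum-alone library 1 or 2, and the 5 of Cyp11a1 were 3 without FGF-2 library 1 and 5 without any other.

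Cytoskeletal and YAP-TEAD target genes had 50 regions, of which 13 were called higher (26%, against 13% of all regions) and 2 lower (4%, near the 3.88% of all regions), with a median log2 fold change of 0.43. Itga5, the fibronectin receptor subunit gene, had 5 of 5 regions called higher (2.154 to 2.90), also with any 1 library left out. The region 10.3 kb upstream of Itga5 had signals of 224 and 121 with FGF-2 and 21.2 and 31.8 with serum alone (2.49 ± 0.29, SE; limma adjusted p = 2.81e-15). Itga5 RNA averaged 6309 ± 955 CPM with FGF-2 and 765 ± 408 CPM with serum alone (SD, n = 3 each; log2 fold change 3.04 ± 0.36, SE). Its partner subunit gene Itgb1 had 3 of 11 called higher, Amotl2 3, Cyr61 (now Ccn1) 1 and Cav1 1, and the 2 called lower were next to Actb and Lats2. Of the 11 tested genes 5 rose in RNA and 2 fell. The counts were 9 higher and 0 lower without FGF-2 library 1, 9 and 2 without FGF-2 library 2, 14 and 0 without serum-alone library 1, and 12 and 3 without serum-alone library 2.

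Genes of BMP, Notch and Wnt signalling had 34 regions, of which 3 were called higher (8.82%, against 13% of all regions) and 2 lower (5.88%, against 3.88%), with a median log2 fold change of -0.09. The region 16.6 kb from the start of Hes1, a Notch target gene, had signals of 2.85 and 8 with FGF-2 and 35.9 and 27.6 with serum alone (-1.97 ± 0.42, SE; limma adjusted p = 8.58e-05), and Hes1 RNA fell to 12.3 ± 0.40 CPM with FGF-2, against 26.3 ± 9.94 CPM with serum alone (SD, n = 3 each). The other lower region was next to Id1. Id3, a BMP target gene, had 1 region called higher (19.02 and 32 with FGF-2, 7.37 and 2.51 with serum alone) while its RNA fell (-1.89 ± 0.24, SE). The other 2 higher regions were next to Gm14207, a non-coding gene that entered the list because RefSeq gives it the synonym Dll4, and the Notch ligand gene Dll4 within 100 kb rose in RNA. The Gm14207 region 13.3 kb from the start did not pass without FGF-2 library 2 (1.57, adjusted p = 0.120) or serum-alone library 2 (1.34, 0.0540). Of 9 tested genes 2 rose in RNA and 3 fell. The counts were 4 higher and 1 lower without FGF-2 library 1, 1 and 3 without FGF-2 library 2, 4 and 1 without serum-alone library 1, and 2 and 2 without serum-alone library 2. Cell cycle genes had 19 regions, of which 2 were called higher (10.5%, against 13% of all regions) and 2 lower (10.5%, against 3.88%), with a median of 0.14. The higher ones were both next to Mdm2, the p53 ubiquitin ligase gene, and the lower ones both next to Ccnd1, the cyclin D1 gene. The larger Mdm2 change, 119 and 52 with FGF-2 and 29.5 and 29.3 with serum alone, was 1.31 and fell short of the test without FGF-2 library 1 (0.75, adjusted p = 0.394). The Ccnd1 region 5.8 kb upstream had signals of 1.90 and 1 with FGF-2 and 12.9 and 18.4 with serum alone and did not pass without serum-alone library 2 (-1.64, adjusted p = 0.0848), and the one 41.6 kb upstream did not pass without FGF-2 library 1 (-0.92, 0.256), FGF-2 library 2 (-1.13, 0.107) or serum-alone library 1 (-0.68, 0.359). Ccnd1 RNA averaged 530 ± 43.4 CPM with FGF-2 and 510 ± 19.96 CPM with serum alone (SD, n = 3 each). With centring the cell cycle list had 1 higher and 2 lower calls and a median of -0.03. Of 6 tested cell cycle genes 2 rose in RNA and 1 fell, and the region counts were 0 higher and 1 lower without FGF-2 library 1, 3 and 1 without FGF-2 library 2, 1 and 1 without serum-alone library 1, and 2 and 1 without serum-alone library 2.

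Beside the H3K27ac change, the RNA of the nearest gene was a readout that the choice of regions had not used. The nearest gene of 6709 intergenic regions (98.8%) matched an RNA symbol and that of 4288 (63.1%) passed the filter on low counts. Among the 678 regions called higher with such a gene, its RNA rose in 403 (59.4%) and fell in 64 (9.44%), and among the 197 called lower it rose in 33 (16.8%) and fell in 77 (39.1%). Over all 10374 genes tested with edgeR's quasi-likelihood test 22.1% rose and 24.2% fell (a rise in 47.7% of the calls with TMM, in 32.7% when upper quartiles set the scale and in 18.1% when library totals did), and among the 3413 intergenic regions that were not called 28.5% had a nearest gene that rose and 25.8% one that fell. Counted once per gene, 213 of 394 genes next to a region called higher rose (54.1%) and 42 fell, and 27 of 168 next to a region called lower rose and 67 fell (39.9%). Taken over the whole table, the nearest gene rose in 53.7% and fell in 11.1% of regions called higher, and rose in 15.6% and fell in 44.0% of those called lower. Without single H3K27ac libraries the nearest gene rose for 58.3% to 66.4% of regions called higher and fell for 33.7% to 37.2% of those called lower, over 235 to 662 and 46 to 266 regions. The number of regions called higher whose nearest gene fell was 42 in place of 64 without serum-alone RNA library 1, and the number of regions called lower whose nearest gene rose was 21 without serum-alone RNA library 1 and 14 without serum-alone RNA library 2 in place of 33. Scaling RNA by library totals alone moved the median of all genes to -0.36, against -0.02 in the main fit, and the nearest gene then rose for 320 and fell for 124 of the regions called higher, and rose for 10 and fell for 119 of those called lower.

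**Figure D5:**
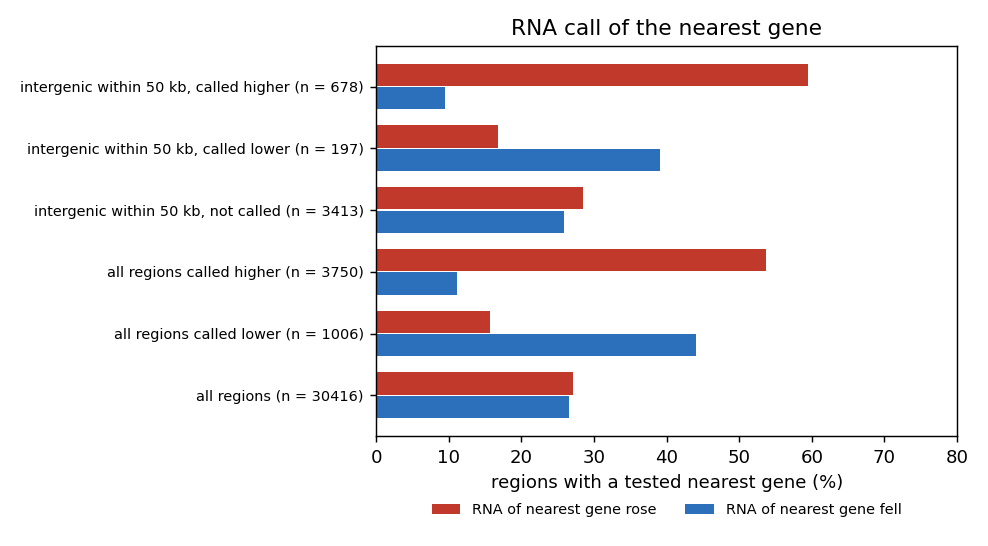
Share of regions, in percent, whose nearest gene rose (red) or fell (blue) in RNA by edgeR's quasi-likelihood test, over regions whose nearest gene was tested (n beside each name). The nearest gene rose for 59.4% and fell for 9.44% of the intergenic regions called higher, and rose for 16.8% and fell for 39.1% of those called lower.

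Among the 91 genes with at least 3 called regions, all higher, 58 had tested RNA, of which 40 rose and 2 fell, with a median log2 fold change of 1.29. The 2 that fell were Cyp11a1 and Phb. Phb, which encodes the mitochondrial protein prohibitin, had 7 of 11 regions called higher, against 13% of all regions. The 7 were 4 without FGF-2 library 1, 5 without FGF-2 library 2, 6 without serum-alone library 1 and 5 without serum-alone library 2. The region 21.2 kb upstream of Phb had signals of 56.1 and 72 with FGF-2 and 2.76 and 2.51 with serum alone (3.35 ± 0.40, SE; limma adjusted p = 2.91e-14). Phb RNA averaged 66.0 ± 4.52 CPM with FGF-2 and 82.7 ± 6.96 CPM with serum alone (SD, n = 3 each; log2 fold change -0.32 ± 0.11, SE; edgeR adjusted p = 0.0349), a call that did not hold when any RNA library but serum-alone RNA library 3 was left out (adjusted p = 0.0573 to 0.140), in DESeq2 (0.0714) or with no filter (0.0588). Of the 8 genes with called regions all lower, 3 had tested RNA, of which 1 rose and 0 fell. Pim3 was the gene that rose (log2 fold change 0.86 ± 0.13, SE; edgeR adjusted p = 0.000615), or 0.52 with library totals alone. The 3 tested genes with called regions in both directions, Sspn, Gm14486 and Sowahc, all fell in RNA. Sspn, a sarcospan gene of the dystrophin complex, had a region 33.0 kb from its start with signals of 127 and 84 with FGF-2 and 0.92 and 24.2 with serum alone. The log2 fold change of this region, 3.19, was 1.93 without serum-alone library 1. It was not called with centring (adjusted p = 0.188), quantile normalization (0.0592), a pseudocount of 1 (0.390) or edgeR and TMM (0.0595). Nor was it called in DESeq2 (0.420) or in the authors' deposited table (0.292).

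Sspn lies in a stretch near the end of chromosome 6 that stood apart from the rest. Its 51 intergenic regions had a median mean signal of 132, against 25.7 elsewhere, and held 12 of the 20 strongest intergenic regions. In the authors' deposited peak lists the median pileup of their peaks was 89 and 82 with FGF-2 and 110 and 127 with serum alone, against 16 and 15 with FGF-2 and 16 and 16 with serum alone elsewhere. The median fold over background was 4.96 and 4.57 with FGF-2 and 5.16 and 5.17 with serum alone, against 7.63 and 7.47 with FGF-2 and 7.87 and 7.48 with serum alone elsewhere. Of the 51, 10 were called higher (19.6%, against 13% of all regions) and 8 lower (15.7%, against 3.88%), and of all 180 regions of the stretch 27.2% were higher and 11.7% lower. These counts were 6 and 5 without FGF-2 library 1, 9 and 3 without FGF-2 library 2, 12 and 9 without serum-alone library 1, and 11 and 12 without serum-alone library 2. Near Tmtc1 in this stretch, a region had signals of 146 and 94 with FGF-2 and 448 and 459 with serum alone (-1.91 ± 0.25, SE). Near Tuba3b a pair of regions had signals of 45 to 86.5 with FGF-2 and the floor with serum alone. These deposited signals were at least 24.96-fold and 21.6-fold higher with FGF-2. The FGF-2 peaks there were 2.45-fold and 2.49-fold over background at the first region and 1.91-fold and 1.81-fold at the second. If input was subtracted, the bounds do not hold for the mark itself.

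Across the 19 autosomes 8.42% to 25.9% of the intergenic regions were called higher (13% of all regions were) and 2.30% to 7.89% lower (3.88% of all regions were). The highest shares called higher were on chromosome 19 (25.9%, against 16.6% of all its regions) and chromosome 17 (25.7%, against 16.1%). On chromosome 19, 20 of the 64 intergenic regions called higher lay within 150000 bases of the Dusp5 start. On chromosome 17, 15 of the 74 were next to F630040K05Rik. Of the 165 intergenic regions of the X chromosome 6 (3.64%) were called higher and 18 (10.9%) lower, with a median log2 fold change of -0.18, while of all 916 X regions 6.66% were higher and 4.48% lower. The X counts were 1 and 7 without FGF-2 library 1, 2 and 6 without FGF-2 library 2, 8 and 1 without serum-alone library 1, and 2 and 16 without serum-alone library 2, and the lower calls were fewest without serum-alone library 1.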

How the data were processed

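Serum-starved Y1 cells given FGF-2 with serum or serum alone were compared, with 2 H3K27ac libraries and 3 RNA libraries per group. The intergenic regions and the gene lists were chosen with earlier results of these data known.

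Per the submitters' processing notes, the build was mm10 and the tools included STAR 2.5.2a, HTSeq 0.10.0, MACS2 2.2.6, bedtools 2.15.0, SAMtools 1.1, ChIPseeker and DiffBind. Per the file headers, MACS2 called peaks in each library against its own input at a q-value of 0.01, and the deposited peak lists give a pileup signal, a fold enrichment and a −log10 q-value per peak. The deposited region signal is the DiffBind output of the authors. After division by one factor per library (0.951 and 1 for FGF-2, 0.921 and 0.836 for serum alone), 100% of values were whole reads. The tolerance was 0.02, and the floor was 1 read. Whether the input was subtracted first is not given in the sources used here, and it would decide how many regions sit at that floor. The authors' deposited table also gives a log2 fold and an FDR per region. The deposited RNA values are read counts per gene by the authors with HTSeq, and 37.0% to 43.2% of counts in rows that name no gene were left out. How strand was treated in counting is not stated there.

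Region signals were tested as log2(signal + 4) over all 40772 regions with limma 3.58.1 (trend and robust variance, no covariate), and RNA counts with the edgeR 4.0.16 quasi-likelihood test and TMM scaling over 10374 genes that passed the filter on low counts, both in R 4.3.3 and with Benjamini-Hochberg adjustment at 0.05. Every adjusted p of a region is from limma and every adjusted p of an RNA is from edgeR, unless another tool is named. CPM values use library totals scaled by the TMM factors. Tables were made with Python 3.11.15, pandas 2.3.3, numpy 2.4.6, scipy 1.17.1 and matplotlib 3.10.9. Alternatives were edgeR and DESeq2 1.42.0 on recovered reads, other scalings, pseudocounts, filters and overlaps, a replicate block, and each library left out. Both fits were tested on simulated data. Libraries of a group differed beyond sampling noise (chi-square per degree of freedom 2.45 to 2.52 for H3K27ac and 9.58 to 25.6 for RNA).

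Regions were named by a rule. It took the 10 largest increases and 10 largest decreases among called regions with groups that did not overlap and a mean signal of at least 20, up to 3 regions per gene list, up to 6 called regions whose nearest gene changed the same way in RNA and 4 the opposite way, and the genes with most called regions, up to 6. Other genes of the 8 lists are named for their called regions, and regions holding a RefSeq start, microRNA genes, the X chromosome, the Dusp5 surroundings and the chromosome 6 stretch after their values were seen. Motifs were counted in RefSeq start windows only, since no mm10 genome was used here. The input libraries entered through the peak lists and, if the authors subtracted them, through the region signals. Results for some genes of the lists are not reported here.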

Additional observations from a re-analysis of the deposited data

How the results depend on the processing

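The number of changed regions depended on the test, the scaling and single libraries. No alternative turned the direction of a named region. However, all 58 were called and had groups that did not overlap. A left-out library or another pseudocount could therefore not turn their direction. Of 899 values of the 58 named regions under alternatives, 851 kept direction and call and 48 kept direction but lost the call. Over all regions, 5295 were higher and 1583 lower. DESeq2 called 2301 and 959 and the authors' deposited false discovery rate 3398 and 670, while the lower count was 3101 with centring, 2726 with edgeR and TMM and 3278 after quantile normalization. With 1 library left out the counts ranged from 1676 to 6397 higher and from 568 to 2467 lower. Among the intergenic regions (1081 higher and 361 lower), DESeq2 called 453 and 181, the authors' deposited false discovery rate gave 674 and 141, centring gave 643 and quantile normalization 661 lower, and leaving out 1 library gave 374 to 1053 higher and 113 to 453 lower. Removing regions at the floor, chosen after seeing the data, left 816 higher and 301 lower.

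Counts of 2-fold differences without overlap (1037 higher and 329 lower) were 468 and 72 with a pseudocount of 16, 502 lower with centring, and 1000 to 1213 higher and 283 to 529 lower with 1 library left out. Intergenic regions with a peak in all 4 libraries, 3542 in the main setting, were 1967 when the peak had to cover at least 50% of the region. RNA calls (2295 rose and 2512 fell) were 1035 and 4673 with library totals alone, and 1624 to 2417 and 1892 to 2540 with 1 library left out. Among the regions called higher, the nearest gene rose for 403 and fell for 64, against 320 and 124 with library totals, and 357 to 420 and 42 to 62 with 1 RNA library left out. Among the regions called lower, it rose for 33 and fell for 77, against 10 and 119 with library totals, 18 rising with upper-quartile scaling, and 14 to 30 and 63 to 79 with 1 RNA library left out. The causes were not tested.

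Same-numbered H3K27ac libraries had deviations that correlated at -0.26, and same-numbered RNA libraries at -0.10, 0.066 and 0.38, so the numbers were not taken to pair them. With the replicate number as a block, 4253 regions were higher and 1045 lower, of which 900 and 244 were intergenic, and a Ccnd1 region 41.6 kb upstream lost its call (adjusted p = 0.0813). The crossed replicate block, added after seeing the data, gave 1271 and 506. The RNA block gave 2375 genes that rose and 2642 that fell. In at least 1 library 350 of the 6792 intergenic regions were at the floor of 1 read, and the size of their change rests on the pseudocount.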
